A study of Mus musculus with 17 samples.

Results

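The 10 genes described here mark septal astrocytes. *Itih3*, *Srgap1*, *Il33* and *Plce1* were linked by the study to medial septal astrocytes (MSAs) or to sonic hedgehog (SHH) signaling, and *Gnao1*, *St6galnac5*, *Csmd1*, *Prex2*, *Pigk* and *Slc38a1* to lateral septal astrocytes (LSAs). They were taken by symbol from the 56691 gene rows of the count table, and all 10 were found, each on 1 row. The 17 libraries came from astrocytes of C57BL/6 mice at P2, purified by immunopanning and cultured without serum. The starting tissue was the brain without meninges, olfactory bulbs and cerebellum, so septal astrocytes were at most a part of each culture, and the measurements do not separate MSAs from LSAs.

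There were 2 experiments. In the first, cultures at 3 d in vitro received SAG, a small-molecule agonist of the SHH transducer Smoothened, at 500 ng per ml, or its solvent DMSO, for 3 d, with 3 libraries each. In the second, cultures at 2 d in vitro received FGF2 (4 libraries) or FGF10 (3 libraries) at 50 ng per ml, or their solvent PBS (4 libraries), for 7 d. All 5 groups, controls included, grew in medium with HB-EGF, a heparin-binding ligand that itself signals through an EGF receptor. Treatment time and culture age differ between the experiments, so levels in DMSO and PBS cultures are only set side by side.

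The medial and lateral septum are neighboring forebrain nuclei whose astrocytes arise from different progenitor domains. SHH binds the receptor Ptch1, which releases Smoothened from inhibition and lets GLI transcription factors turn on genes such as *Ptch1* itself and *Gli1*. FGFs bind receptor tyrosine kinases that signal through ERK, with *Dusp6*, the Sprouty genes and *Etv4* and *Etv5* among the usual readouts. The members have unlike roles. *Itih3* encodes a secreted heavy chain that attaches to hyaluronan in the extracellular matrix, and *Il33* an alarmin cytokine. *Gnao1* encodes the alpha subunit of the heterotrimeric G protein Go, *Srgap1* a protein of SLIT–ROBO signaling, *Plce1* a phospholipase C regulated by Ras-family GTPases and *Prex2* a Rac exchange factor. *Csmd1* encodes a large membrane protein with complement-regulating domains, *Slc38a1* a sodium-coupled transporter of glutamine and other neutral amino acids, *St6galnac5* a sialyltransferase that acts on gangliosides and *Pigk* the catalytic subunit of the enzyme that attaches GPI anchors.

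On the GRCm38 build that the submitters name, and with GENCODE M21 gene spans, the MSA or SHH-linked genes lie at chr14:30908572-30923760 (*Itih3*, minus strand), chr10:121780991-122047315 (*Srgap1*, minus), chr19:29925114-29960718 (*Il33*, plus) and chr19:38481109-38785030 (*Plce1*, plus). The LSA genes lie at chr8:93809966-93969388 (*Gnao1*, plus), chr8:15892537-17535586 (*Csmd1*, minus), chr1:10993465-11303681 (*Prex2*, plus), chr15:96571418-96642913 (*Slc38a1*, minus), chr3:152817081-152982246 (*St6galnac5*, minus) and chr3:152714100-152980408 (*Pigk*, plus). The last 2 overlap on opposite strands, exons included, through a long *Pigk* transcript. The protein-coding *Pigk* transcripts end at 152789026, which is 28054 bases before the annotated end of the *St6galnac5* coding transcript. Exons of *Gnao1* also overlap the antisense gene *4930488L21Rik*, and an exon of *Srgap1* overlaps *Gm48804* on the same strand. The strand setting of the counting is not given in the sources used here. How reads in the overlaps on opposite strands were assigned is therefore not known. Strand cannot separate *Srgap1* from *Gm48804*. The values of these genes could be affected by their overlapping partners.

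The RefSeq table of promoters (GRCm38.p6, 250 bases before to 50 bases after a start site) held 6 promoters for 5 of the 10 members: *Itih3*, *Srgap1*, *Plce1*, *Gnao1* and both starts of *Il33*. They were searched for the core of the GLI binding site, CCACCCA, and its reverse complement TGGGTGG. Of all 32851 promoters in the table, 9.3% held the core on either strand. Among the members' promoters 1 did, that of *Itih3*, with 2 matches, the first at positions −107 to −101 from the start site on the reverse complement. The longer form GACCACCCA, present in 0.253% of promoters, was in none of the 6. The *Itih3* and *Gnao1* promoters are shown because these genes, of those with a promoter in the table, were the ones whose SAG and DMSO libraries did not overlap. They stand 5′ to 3′ in the direction of transcription, with the core in capitals:
Itih3, chr14:30923538-30923837, minus strand: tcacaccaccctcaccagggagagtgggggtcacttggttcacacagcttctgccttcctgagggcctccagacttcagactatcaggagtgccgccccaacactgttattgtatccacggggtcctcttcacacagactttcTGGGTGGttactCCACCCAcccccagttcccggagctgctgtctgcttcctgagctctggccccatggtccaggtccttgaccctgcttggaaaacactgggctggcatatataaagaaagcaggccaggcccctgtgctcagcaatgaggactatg
Gnao1, chr8:93810588-93810887, plus strand: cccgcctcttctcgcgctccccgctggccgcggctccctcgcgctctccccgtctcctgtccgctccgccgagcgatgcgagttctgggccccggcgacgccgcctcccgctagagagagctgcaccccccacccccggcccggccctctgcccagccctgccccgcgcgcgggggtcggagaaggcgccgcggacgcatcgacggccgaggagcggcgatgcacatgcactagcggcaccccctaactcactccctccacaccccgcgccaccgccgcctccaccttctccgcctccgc
The *Gnao1* promoter holds no core match, and its GC content was 76.3%, against 57% for *Itih3* and a median of 52.7% over all promoters. A match of these letters is a description of the window and shows no binding.

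Levels are given as CPM, the read count of a gene relative to the TMM-normalized total of its library, on 1 scale over the 17 libraries. The libraries read the 3ʹ ends of transcripts, and their totals ran from 17481727 to 68342287 counts. Genes of low level often went unread: among those averaging 5 to 10 CPM elsewhere, each library lacked reads for 7.58% to 33.8%. Among the members, *Prex2* was at 0 in 7 of 17 libraries, *Itih3* in 5, *Il33* in 4, and *Csmd1* and *Pigk* in 1 each. The other 5 were counted in every library. Of 10 astrocyte markers, all 10 were above 3 counts in some library of every group, with a summed level of 3636 to 5830 CPM. Of 10 microglia or macrophage markers 7 or 8 were at 0 in every library of a group, and their sum was at most 34.1 CPM. Markers of the oligodendrocyte lineage summed to 1833 to 4273 CPM, mostly *Olig1* and *Olig2*, which some astrocytes and their progenitors also express. Readouts of SHH signaling were higher in SAG: *Ptch1* rose from 83.9 CPM ± 17.7 (SD, n = 3) in DMSO to 468 ± 12.8 (SD, n = 3) in SAG, and *Gli1* and *Hhip* had no read in any DMSO library.

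*Itih3* was the member with the largest fold between SAG and DMSO means among those whose groups did not overlap. Its level was 4.86, 6.27 and 0 CPM in DMSO replicates 1, 2 and 3, and 120.8, 72.2 and 49.2 CPM in the SAG replicates. The groups did not overlap, and the lowest SAG library was also above the highest of the 14 other libraries of both experiments, which was 9.77 CPM in FGF10 replicate 2. The group means differed 21.8-fold, and the log2(fold-change) was 4.46 ± 1.24 (SE, 3 against 3 libraries; 95% interval 1.74 to 7.18). edgeR's quasi-likelihood test gave an adjusted p of 0.432, so the difference was not called. The call differed between settings of the low-count filter, and the cause was not tested. Without the filter the edgeR adjusted p was 1.44e-09, where 0.408% of genes were called. With a minimum mean of 10 counts it was 0.00108, where 0.265% were called. DESeq2, which called 3.01% of genes, gave *Itih3* an adjusted p of 0.173. With 3 libraries against 3, the exact two-sided permutation test cannot go below 0.1, the value it gave for *Itih3*.

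**Figure D1:**
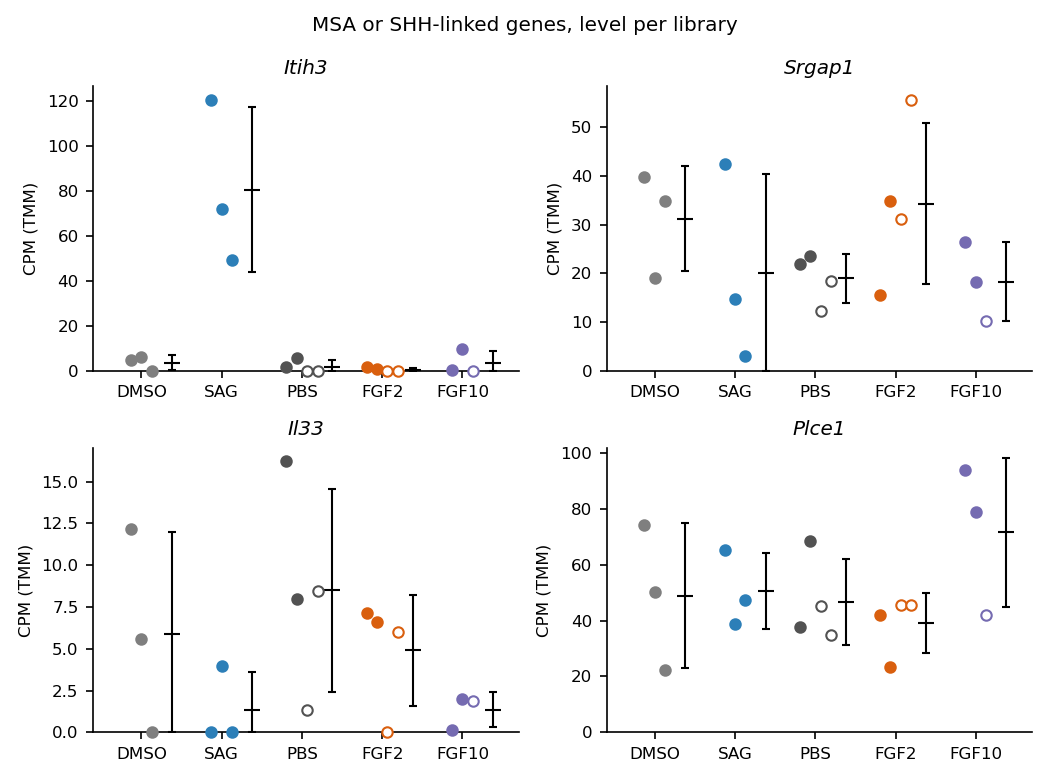
Level of the MSA or SHH-linked genes in each of the 17 libraries (vertical axis, TMM-normalized CPM; horizontal axis, group). Circles are libraries, with replicates 3 and 4 of the FGF experiment open; the bar beside each group is the mean ± SD, drawn no lower than 0. The 3 SAG libraries of *Itih3* sit between 49.2 and 120.8 CPM, above all others, whereas the groups of the other genes overlap.

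*Itih3* stood alone among the MSA or SHH-linked genes. *Il33*, the cytokine, was at 12.2, 5.57 and 0 CPM in DMSO and at 0, 3.96 and 0 CPM in SAG, with a log2(fold-change) of −2.14 ± 3.25 (SE). *Srgap1* was at 39.7, 19.1 and 34.7 CPM in DMSO and at 42.5, 14.8 and 3.16 CPM in SAG, so the highest and the lowest of the 6 libraries were both SAG libraries. *Plce1* ranged from 22.4 to 74.1 CPM in DMSO and from 38.6 to 65.3 CPM in SAG, with a log2(fold-change) of 0.065 ± 0.487 (SE; 95% interval −1.0 to 1.13). These 3 genes overlapped between the groups, and their intervals still allow a doubling or a halving.

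*Gnao1*, the Go alpha subunit, was lower in every SAG library. It was at 470.3, 532.8 and 433.3 CPM in DMSO and at 317.5, 216.8 and 211.4 CPM in SAG, without overlap, and the ratio of the means was 0.519. The log2(fold-change) was −0.92 ± 0.21 (SE; 95% interval −1.38 to −0.47), with an edgeR adjusted p of 0.301. It ranked 39 of 12538 genes by p, ahead of every other member. The gene passed an adjusted p of 0.05 with DESeq2 (0.000247), with edgeR without a low-count filter (0.0176) and with edgeR at a minimum mean of 10 counts (0.0467).

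*Csmd1* showed the same direction at a lower level. Its libraries were at 23.3, 50.6 and 10.5 CPM in DMSO and at 2.87, 3.57 and 0.032 CPM in SAG, again without overlap. The log2(fold-change) was −3.69 ± 1.5 (SE; 95% interval −6.99 to −0.39), with an adjusted p of 0.753 in edgeR and of 0.0475 in DESeq2. In SAG replicate 3 the gene was at or under 3 counts, so the size of the fold rests on few reads.

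Not every LSA gene was lower. The ganglioside sialyltransferase *St6galnac5* was at 1.02, 6.73 and 4.74 CPM in DMSO and at 29.8, 17.3 and 6.22 CPM in SAG, and its fitted log2(fold-change) was 2.11 ± 1.43 (SE), above 0 and not called. *Pigk* was at 12.5, 23.7 and 0 CPM in DMSO and at 3.44, 31.3 and 28.8 CPM in SAG, so the groups overlapped in part. The transporter *Slc38a1* was at 512.1, 490.7 and 535.4 CPM in DMSO and at 483.4, 580 and 442.7 CPM in SAG. Its log2(fold-change) of −0.0078 ± 0.170 (SE; 95% interval −0.38 to 0.37) makes it the member whose SAG difference was bounded most tightly. *Prex2* was at or below 8.84 CPM in all 6 libraries and at 0 in SAG replicates 2 and 3.

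No member was called in SAG against DMSO at an adjusted p under 0.05, where 8 of 12538 genes (0.0638%) were called. The groups did not overlap for 3 of 10 members, 1 higher and 2 lower, against 14.2% of all genes (5.96% higher and 8.21% lower). At an unadjusted p under 0.05, the same 3 members passed, against 5.69% of all genes. The members and lists were chosen with earlier results of these data known. Such shares, here and below, therefore describe the members and do not test for an excess. The median log2(fold-change) was −0.27 over the MSA or SHH-linked genes and −0.32 over the LSA genes, against −0.02 over all genes tested, and each list held fitted values of both signs. Leaving out any 1 of the 6 libraries called none of the 10 members and kept the sign of *Itih3*, *Gnao1* and *Csmd1*. The log2(fold-change) of *Itih3* then ranged from 3.87 (without DMSO replicate 3) to 5.06 (without DMSO replicate 2), that of *Csmd1* from −4.26 (without SAG replicate 2) to −2.95 (without DMSO replicate 2) and that of *Gnao1* from −1.14 to −0.83. Without DMSO replicate 3, the one without an *Itih3* read, the edgeR adjusted p of *Itih3* was 0.134, the lowest of the 6.

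**Figure D2:**
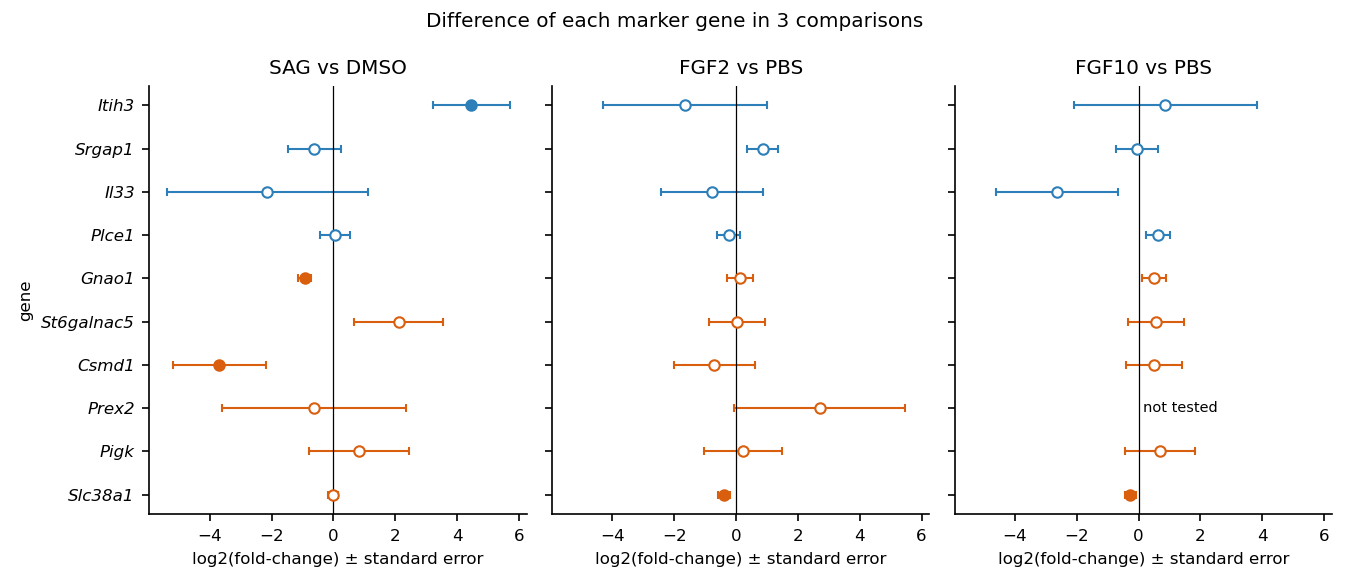
log2(fold-change) of each member with its standard error (horizontal axis) in SAG against DMSO, FGF2 against PBS and FGF10 against PBS; MSA or SHH-linked genes are blue and LSA genes orange. Filled circles mark genes whose groups did not overlap: *Itih3*, *Gnao1* and *Csmd1* under SAG, and *Slc38a1* under both FGFs. *Prex2* did not pass the low-count filter in FGF10 against PBS.

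Other regional genes that the study names gave a similar mix in SAG against DMSO. Of 5 further genes enriched in medial septum, 2 had fitted values above 0, and none was called. The GABA transporter *Slc6a11* came closest, at 239 CPM ± 43.6 (SD, n = 3) in DMSO and 557 ± 96.1 (SD, n = 3) in SAG. Its groups did not overlap, and its edgeR adjusted p was 0.0854. The study itself, using DESeq2, reported *Slc6a11* as significantly upregulated by SAG. It also found more *Slc6a11* transcripts in lateral septal astrocytes of mice whose astrocytes had lost *Ptch1*. In medial septal astrocytes of these mice it reported no significant increase. Of 7 further genes enriched in lateral septum, 6 had fitted values below 0, between −1.04 for *Clmn* and −0.06 for *Mfge8*, and none was called or free of overlap. The study also lists genes that classify its P21 septal astrocyte clusters. Of 11 genes marked in both its MSA and LSA lists, 10 were tested and 0 called. Some of them, such as *Slc6a11* and *Mgll*, are already counted above. For 3 of the 10 the groups did not overlap, with SAG higher, against 5.96% of all genes. The glutamate receptor gene *Gria1* was at 1.04 CPM ± 1.43 (SD, n = 3) in DMSO and 72.8 ± 26.3 (SD, n = 3) in SAG, with an edgeR adjusted p of 0.261. By comparison 1 of the 3 SHH readouts tested was called higher, *Ptch1*, at a log2(fold-change) of 2.50 ± 0.22 (SE).

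Summed marker levels of several cell types differed between SAG and DMSO, some lower and some higher in SAG. The astrocyte markers summed to 4504 to 4750 CPM in DMSO and 3925 to 4494 CPM in SAG, but the list was mixed. Of the 10 astrocyte markers, 6 had fitted values below 0 and 4 above. Their median log2(fold-change) was −0.064, against −0.02 over all genes tested. *Gfap* (174 CPM in DMSO and 40.4 CPM in SAG), *Gja1* (119 and 59.6 CPM) and *Sox9* (1308 and 895 CPM) were lower in every SAG library. *Aldh1l1* (162 and 278 CPM) was higher in every SAG library. *Slc1a3* (1306 and 1422 CPM), *Aldoc* (570 and 624 CPM) and *Hepacam* (123 and 152 CPM) had fitted values above 0 and overlapped. None of the astrocyte markers was called. The summed level of 10 neuron markers was 82.3 to 244.7 CPM in DMSO and 26.1 to 75.4 CPM in SAG. Of 7 neuron markers tested, 5 had fitted values below 0 and 2 above, none called. *Gad2* (32.4 CPM in DMSO and 4.46 CPM in SAG), *Gad1* (12.6 and 1.41 CPM) and *Dcx* (20.1 and 1.34 CPM) were lower in every SAG library. *Rbfox3* was at 19.8 and 22 CPM and overlapped. *Slc17a6* and *Slc17a7*, which define glutamatergic neurons, were at 0 in both groups. The summed level of 10 oligodendrocyte lineage markers was 1968 to 2395 CPM in DMSO and 3650 to 3856 CPM in SAG, but *Olig1* and *Olig2* made up most of it. The other 8 markers summed to 194.4 to 315.1 CPM in DMSO and to 138.1 to 173.4 CPM in SAG. Of the list *Olig1* was called higher, and 5 of 8 tested markers had fitted values below 0, among them *Sox10*, which defines the lineage more narrowly, at 94 CPM in DMSO and 42.8 CPM in SAG. The ependymal markers summed to 236 to 293 CPM in DMSO and 108 to 148 CPM in SAG. The part of these cell types in the differences of *Gnao1* and *Csmd1* was not tested. In cultures measured in bulk, fewer cells of a type and less RNA per cell cannot be told apart.

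**Figure D3:**
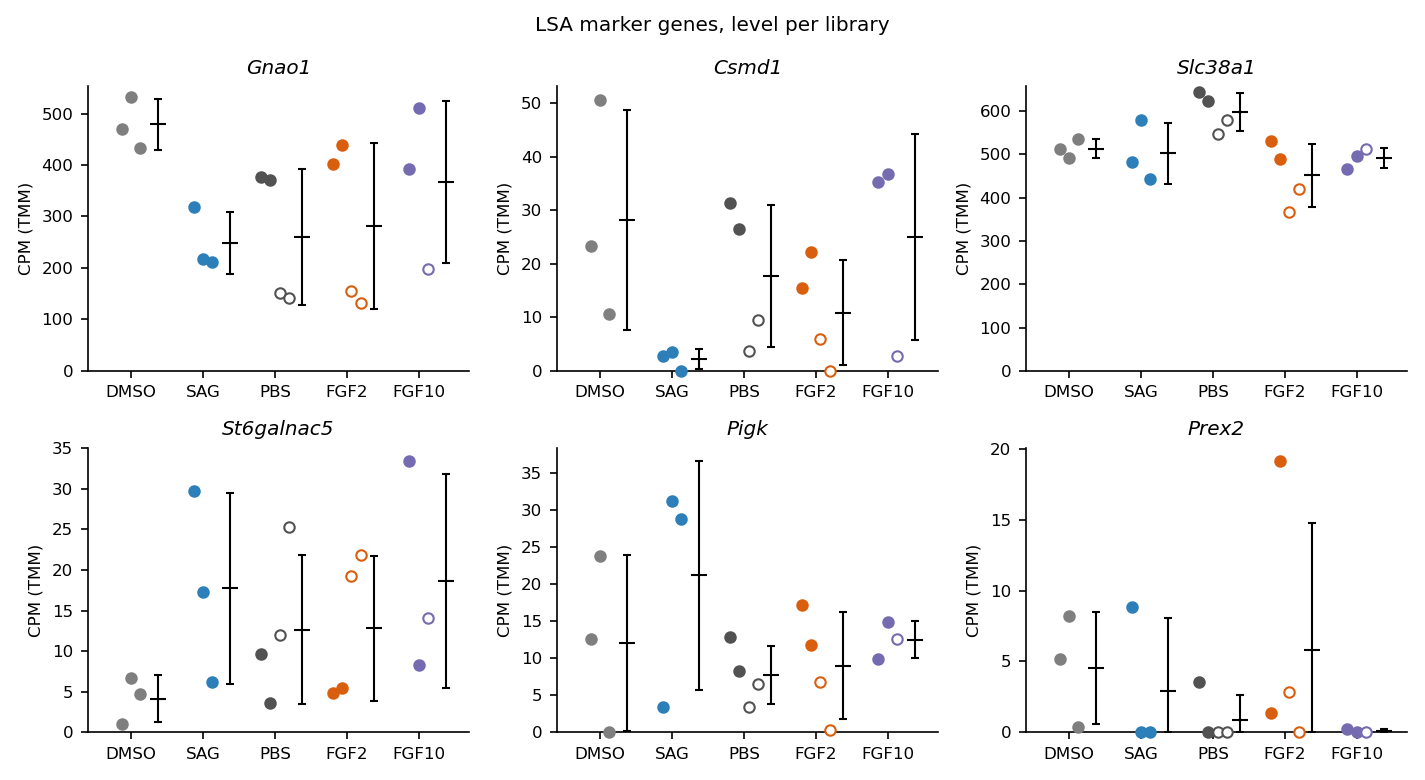
Level of the LSA genes in each of the 17 libraries (vertical axis, TMM-normalized CPM; horizontal axis, group), with replicates 3 and 4 of the FGF experiment as open circles and the mean ± SD beside each group, drawn no lower than 0. *Gnao1* and *Csmd1* are lower in SAG than in DMSO and lower in the open than in the filled circles of the FGF experiment, and *Slc38a1* is lower in FGF2 and FGF10 than in PBS.

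In the FGF experiment the member whose groups separated was *Slc38a1*. It was at 643.8, 622, 546.2 and 580 CPM in PBS replicates 1 to 4, and at 529.9, 490.2, 366.7 and 419.8 CPM in the FGF2 replicates. Every FGF2 library lay below every PBS library, and the exact two-sided permutation p was 0.0286, the smallest that 4 libraries against 4 can give. The log2(fold-change) was −0.40 ± 0.19 (SE; 95% interval −0.80 to 0.0075), with an edgeR adjusted p of 1.00. The fitted values were −0.30 ± 0.17 (SE) within replicates 1 and 2 and −0.51 ± 0.19 (SE) within replicates 3 and 4.

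*Slc38a1* was also lower in FGF10, at 466.4, 495.4 and 511.7 CPM, than in the same PBS libraries, without overlap. The log2(fold-change) was −0.28 ± 0.18 (SE; 95% interval −0.66 to 0.11), with an edgeR adjusted p of 1.00 and an exact two-sided permutation p of 0.0571. Both comparisons share the 4 PBS libraries, and PBS was the highest of the 5 groups for this gene. FGF2 and FGF10 cultures overlapped, with a log2(fold-change) of −0.11 ± 0.21 (SE; 95% interval −0.58 to 0.35) for FGF2 against FGF10.

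No member was called in FGF2 against PBS, FGF10 against PBS or FGF2 against FGF10, and edgeR called 0% of 12744, 13309 and 13493 genes in them. Unadjusted p values were under 0.05 for 223, 305 and 324 genes, and DESeq2 called 120, 104 and 90 genes at an adjusted p under 0.05 (0.805%, 0.666% and 0.543% of those it tested), none of them a member. The groups did not overlap for 1 of 10 members in FGF2 against PBS, where 2.45% of genes did not overlap (1.23% lower), for 1 of 9 tested members in FGF10 against PBS, against 4.79% (2.02% lower), and for 0 of 10 in FGF2 against FGF10, against 4.9%. The FGF-ERK readouts were not called either: all 6 were tested in each comparison, and 5 had fitted values above 0 in FGF2 against PBS and 1 in FGF10 against PBS.

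The signaling genes overlapped between FGF groups. *Plce1* was at 37.8, 68.6, 45.1 and 34.9 CPM in PBS, at 42, 23.4, 45.5 and 45.7 CPM in FGF2 and at 93.7, 78.8 and 42.1 CPM in FGF10. Its log2(fold-change) of −0.86 ± 0.38 (SE; 95% interval −1.69 to −0.035) for FGF2 against FGF10 had an unadjusted p of 0.0424 and an adjusted p of 1.00 in edgeR, with overlapping groups. *Srgap1* ranged from 12.2 to 23.6 CPM in PBS, from 15.6 to 55.6 CPM in FGF2 and from 10.1 to 26.4 CPM in FGF10, with a fitted log2(fold-change) of 0.86 ± 0.51 (SE) in FGF2 against PBS. *Prex2* had reads above 3 counts in 1 of 4 PBS libraries, in 3 of 4 FGF2 libraries and in 1 of 3 FGF10 libraries, and its highest value, 19.1 CPM, was in FGF2 replicate 2.

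*Itih3* and *Il33* gave low values throughout this experiment. In replicates 1 and 2, *Itih3* was at 1.72 and 5.84 CPM with PBS, 1.62 and 0.69 CPM with FGF2 and 0.46 and 9.77 CPM with FGF10. In replicates 3 and 4 it was at 0 in 4 of 5 libraries and at 0.048 CPM in the other. *Il33* ranged from 1.37 to 16.2 CPM in PBS, from 0 to 7.15 CPM in FGF2 and from 0.15 to 2.02 CPM in FGF10, with a log2(fold-change) of −2.64 ± 1.97 (SE) for FGF10 against PBS. The enzymes *St6galnac5* (3.68 to 33.5 CPM) and *Pigk* (0.29 to 17.1 CPM) overlapped between all 3 groups.

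For *Gnao1* the replicate number separated the libraries of the FGF experiment more than the treatment did. In replicates 1 and 2 it was at 376.6 and 371.7 CPM in PBS, at 401.8 and 439.5 CPM in FGF2 and at 391.9 and 510.5 CPM in FGF10. In replicates 3 and 4 it was at 150.7 and 142 CPM in PBS and at 154.8 and 131 CPM in FGF2, and FGF10 replicate 3 was at 197.7 CPM. The lowest of the first 6 libraries was thus at 371.7 CPM and the highest of the other 5 at 197.7 CPM. The labels do not say what the numbers stand for. With the replicate set as a term, the log2(fold-change) was 0.075 ± 0.146 (SE) for FGF2 and 0.35 ± 0.16 (SE) for FGF10 against PBS, both with an edgeR adjusted p of 1.00.

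*Csmd1* divided along the same line, at 15.4 to 36.8 CPM in replicates 1 and 2 and at 0 to 9.55 CPM in replicates 3 and 4. These were 2 of the 6 members with a mean of at least 10 CPM over the FGF libraries, and both were higher in replicates 1 and 2, as were 3.11% of 9072 genes at that level. Neuron markers summed to 141.9 to 222.3 CPM in replicates 1 and 2 and to 30.8 to 58.3 CPM in replicates 3 and 4, and ependymal markers to 353 to 620 CPM and 83 to 216 CPM. The summed astrocyte markers were lower in replicates 3 and 4 too, at 3636 to 4153 CPM against 4945 to 5830 CPM. *Gfap* was at 10.8 to 87.8 CPM there against 257.3 to 402.4 CPM, and *Sox9* at 822 to 991 CPM against 1412 to 1727 CPM. Not every marker of that list divided this way. *Slc1a2* overlapped, at 253.3 to 427.8 CPM against 297.5 to 530.2 CPM. *Aldh1l1* was highest among the FGF10 libraries in replicate 3, at 302 CPM. The summed FGF-ERK readouts were higher in replicates 3 and 4, at 311 to 672 CPM against 139 to 187 CPM. *Olig1* and *Olig2* together were at 2936 to 4073 CPM in replicates 3 and 4 and at 1356 to 1600 CPM in replicates 1 and 2, whereas the other 8 oligodendrocyte lineage markers were lower, at 122.8 to 347.4 CPM against 396.9 to 589.2 CPM. The part of these differences in the levels of *Gnao1* and *Csmd1* was not tested.

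**Figure D4:**
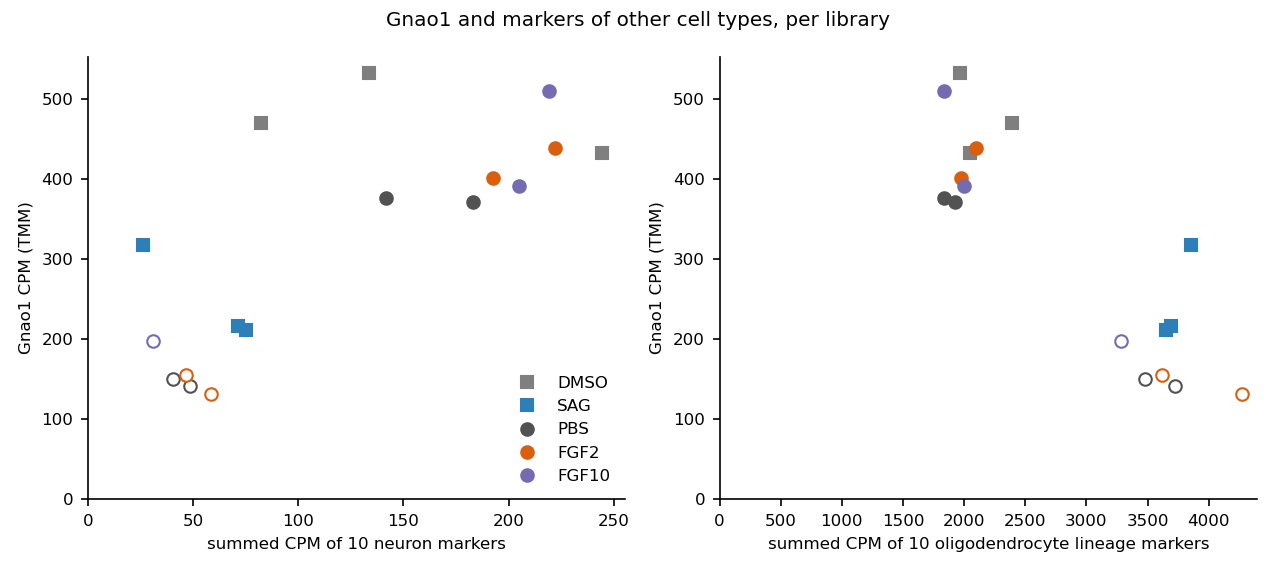
*Gnao1* level (vertical axis, TMM-normalized CPM) against the summed CPM of 10 neuron markers (left) and 10 oligodendrocyte lineage markers, mostly *Olig1* and *Olig2* (right), in each of the 17 libraries. Squares are the SAG experiment, circles the FGF experiment, and open circles its replicates 3 and 4. The SAG libraries and the open circles have *Gnao1* at or below 317.5 CPM and oligodendrocyte lineage sums of 3283 to 4273 CPM, whereas the other 9 libraries have *Gnao1* at or above 371.7 CPM and sums of 1833 to 2395 CPM.

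Ordered by group mean, *Gnao1* was highest in DMSO (479 CPM ± 50.3, SD, n = 3), then in FGF10 (367 ± 158, n = 3), FGF2 (282 ± 161, n = 4), PBS (260 ± 132, n = 4) and SAG (249 ± 59.8, n = 3). Each group overlapped the next in this order. *Csmd1* had nearly the same order, with DMSO first (28.2 CPM ± 20.5, SD, n = 3) and SAG last (2.16 ± 1.87, n = 3). *Itih3* was highest in SAG (80.8 CPM ± 36.6, SD, n = 3), and the next group, DMSO (3.71 ± 3.29, n = 3), did not overlap it. For *Slc38a1* the order was PBS (598 CPM ± 43.5, SD, n = 4), DMSO (513 ± 22.4, n = 3), SAG (502 ± 70.5, n = 3), FGF10 (491 ± 22.9, n = 3) and FGF2 (452 ± 72.7, n = 4), and PBS and DMSO did not overlap. For the other 6 members no neighbors in the order were free of overlap.

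The spread of the members over all 17 libraries was uneven. The coefficient of variation was 13.7% for *Slc38a1*, against a median of 21% for genes of like mean, and 43.4% for *Gnao1*, against 21.3%. For *Itih3* it was 209%, against 63.7%. *Plce1* (38.7% against 38.8%) and *Srgap1* (54% against 52.8%) varied as much as genes at their level. The deviations of *Gnao1* and *Csmd1* from their group means had a Pearson r of 0.849 over the 17 libraries, the highest of the 15 LSA pairs, whose median was 0.32. For the 24 pairs of an LSA gene with an MSA or SHH-linked gene, the median was 0.2. These libraries share the replicate sets described above.

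The genes of most similar pattern were found by Pearson r of log2(CPM + 1) over the 17 libraries, among genes with a mean of at least 10 CPM. For *Itih3* they were *Gria2* (r = 0.86), *Ptch1* (r = 0.85) and *Osbpl8* (r = 0.84), a ranking that the 3 SAG libraries dominate because *Itih3* was low in the rest. For *Gnao1* they were *Cpe* (r = 0.92), *Dtna* (r = 0.90) and *Map1b* (r = 0.90), and for *Csmd1* *Usp53* (r = 0.89), *Csdc2* (r = 0.86) and *Zbtb20* (r = 0.86). For *Srgap1* the first was *Prdx5* (r = 0.85), for *Plce1* *Nsf* (r = 0.79) and for *Il33* *Pogk* (r = 0.79). For *Pigk* it was *Ttc30b* (r = 0.83), for *St6galnac5* *Zfp862-ps* (r = 0.82) and for *Prex2* *Rsbn1* (r = 0.82). Each is the top of 9068 or 9069 genes compared over libraries that share groups and replicate sets.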

How the data were processed

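Libraries were made by the authors with a 3ʹ-end kit (QuantSeq), and STAR was used for alignment and gene counting; the submitters' processing notes name the build GRCm38. The deposited file holds raw counts, whole numbers with no normalization, in 1 table whose columns for the SAG libraries are headed Shh. Use of strand or molecular identifiers in counting is not given in the sources used here, so PCR copies may be counted. Groups and replicate numbers came from the labels, and doses and times from the labels and methods. The methods give 3 FGF2 replicates and the labels 4; all 4 were used. The 114 spike-in rows were left out. The methods call the samples biological replicates and pools; p-values measure the spread between these libraries.

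The tests used edgeR 4.0.16 in R 4.3.3 (filterByExpr with a minimum count of 10, TMM, quasi-likelihood test, only the libraries of the groups compared, Benjamini-Hochberg adjustment over all genes tested). Single genes count as called below an adjusted p of 0.05; the study's threshold, used for counts of genes, is stricter (adjusted p under 0.01, log2(fold-change) beyond 1 in size). Standard errors came from the F statistic, and 95% intervals from its degrees of freedom. DESeq2 1.42.0 was an alternative, as were another scaling, other filters, all 5 groups in 1 fit, the replicate number or replicate set as a term and leaving out each library. Single genes were also tested by exact two-sided permutation of CPM. The scripts were tested on simulated data. The text names all 10 members, other regional, SHH and FGF genes of the study that bear on them, and per member the genes of most similar pattern (that of *Slc38a1* is not reported here). The members and lists were chosen with earlier results of these data known. Same-numbered libraries did not deviate together throughout, so the numbers were not treated as pairs. Of 55809 symbols in the table, 50664 (90.8%) were found in the gene annotation.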

Additional observations from a re-analysis of the deposited data

Results flagged for a closer look

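Dixon's 95% limit for groups of 4 libraries is a gap to the neighbor of 0.829 of the group's range. Of 20 member and group combinations, 4 had 1 library past this limit. For normally distributed values chance flags about 1 in 20. In FGF2 replicate 2, *Plce1* was at 23.4 CPM against 42 to 45.7 CPM in the other FGF2 libraries (ratio 0.837), and *Prex2* was at 19.1 CPM against 0 to 2.87 CPM (ratio 0.850). That library had the lowest total, 17481727 counts. In FGF2 replicate 3, *Il33* was at 0 against 5.98 to 7.15 CPM (ratio 0.837). In PBS replicate 1, *Prex2* was at 3.56 CPM and at 0 in the other PBS libraries (ratio 1). With the others at 0, any value above 0 gives this ratio, so the rate of 1 in 20 does not apply to this flag. *Prex2* and *Il33* in FGF2 each included a library at 0, so that rate need not hold for their flags either.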

How the results depend on the processing

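The counts of genes past the study's threshold depended on the processing. For SAG against DMSO there were 4, and 39 without a low-count filter, 21 with a minimum mean of 10 counts, 167 with DESeq2, 8 at an adjusted p under 0.05 with no minimum fold, and 0 to 1 with a library left out. DESeq2 gave 75 for FGF2 against PBS, 65 for FGF10 against PBS and 62 for FGF2 against FGF10, where edgeR without a low-count filter gave 2 and the main test 0 in each. At an adjusted p under 0.05, the main test called 0 members under SAG, against 0.0638% of all genes tested. Without a filter 2 were called (*Itih3* and *Gnao1*), against 0.408% of genes. With a minimum mean of 10 counts the same 2 were called, against 0.265%. DESeq2 called 2 (*Gnao1* and *Csmd1*), against 3.01% of the genes it tested. The cause was not tested. All other alternatives called 0 members, in every comparison.

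*Itih3*, *Gnao1*, *Csmd1*, *Srgap1*, *Il33*, *St6galnac5* and *Pigk* kept their sign in SAG against DMSO under every alternative run, and *Slc38a1* did so in both comparisons with PBS. Of 571 alternative values for members, 40 changed sign, none of them called; the cause was not tested. In SAG against DMSO these were *Slc38a1* with DESeq2 size factors in edgeR (0.0034) and with DESeq2 (0.00091). In FGF2 against PBS they were *Pigk* with the replicate block (−0.26), with the replicate set as a term (−0.026) and within replicates 3 and 4 (−0.51), a comparison added after the data were seen; *Itih3* (0.12) and *St6galnac5* (−0.11) with the replicate set as a term; *St6galnac5* within replicates 1 and 2 (−0.36); and *Plce1* (0.19) and *Gnao1* (−0.031) within replicates 3 and 4. In FGF10 against PBS they were *Itih3* with the replicate block (−0.47) and *Csmd1* with the replicate set as a term (−0.25), and in FGF2 against FGF10 *Pigk* (0.22) and *Slc38a1* (0.091) within replicates 1 and 2.

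With a library left out, values that changed sign ranged, in SAG against DMSO, from −0.29 to 0.49 for *Plce1*, −10.71 to 0.10 for *Prex2* and −0.12 to 0.065 for *Slc38a1*. In FGF2 against PBS they ranged from −2.94 to 0.044 for *Itih3*, −0.35 to 0.0019 for *Plce1*, −0.17 to 0.36 for *Gnao1*, −0.35 to 0.62 for *St6galnac5* and −0.30 to 0.62 for *Pigk*. In FGF10 against PBS they ranged from −3.01 to 2.56 for *Itih3*, −0.43 to 0.23 for *Srgap1* and −0.19 to 1.14 for *St6galnac5*, and in FGF2 against FGF10 from −3.80 to 1.34 for *Itih3* and −0.90 to 0.20 for *St6galnac5*. The *Itih3* values against FGF10 turned without FGF10 replicate 2.

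With the replicate number as a block, edgeR called 12 genes at an adjusted p under 0.05 in SAG against DMSO, where it called 8 without, and 0 in the other comparisons. The log2(fold-change) was then 5.47 for *Itih3* (edgeR adjusted p = 0.152), −0.94 for *Gnao1* (0.191) and −4.61 for *Csmd1* (0.80), and no call of a member changed. Deviations of same-numbered libraries correlated at −0.014 to 0.026 in SAG and DMSO, 0.091 to 0.11 in FGF2 and PBS, 0.041 to 0.076 in FGF10 and PBS and 0.065 to 0.13 in FGF2 and FGF10. In each comparison some libraries correlated best with another number, so the pairing is not established. FGF2 and PBS libraries of the same replicate set correlated at 0.060 to 0.116, and those of different sets at −0.132 to −0.048. With the replicate set as a term, edgeR called 0 genes at an adjusted p under 0.05 in each FGF comparison.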
